A study of Mus musculus with 24 samples.

Results

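The genes described here carry the symbols of proteins of the cytosolic ribosome and were followed over 12 kinds of mouse lung. One of them, Rps4l, is listed as a transcribed pseudogene. A gene was included if a probe set of the array was annotated to its symbol alone and the symbol was Rpl or Rps with a digit, or Rplp0, Rplp1, Rplp2 or Rpsa, with Rps6 kinases and symbols of pseudogenes (-ps) left out. This gave 48 of the 12393 genes with a symbol of their own on the array, and 45 of them were bright enough to be among the 8280 genes tested. Where a gene had several probe sets, which are groups of short oligonucleotides, the one with the highest mean signal stood for it. The lungs came from untreated male mice aged 8 weeks, obtained from the Jackson Laboratory. The inbred progenitors were C57BL/6J (B6) and C3H/HeJ (C3), and BXHF1 (F1) is their hybrid. BXH2, BXH4, BXH6, BXH7, BXH8, BXH9, BXH10, BXH14 and BXH19 are recombinant inbred (RI) strains, each bred from that cross until nearly every locus carries only the B6 or only the C3 allele. Each of the 12 groups had 2 Affymetrix Mouse 430A arrays, from 2 sets of lungs per the series' design text. The labels do not say how many animals a set holds, so a p-value here covers the spread between these samples alone, and that spread may in part be technical.

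A ribosome joins a small subunit, whose proteins carry the prefix Rps, and a large subunit, whose proteins carry the prefix Rpl, around ribosomal RNA. The proteins are needed in near equal number, and cells make much of their messenger RNA for them in growing and resting tissue alike. These messenger RNAs typically begin with a C followed by a stretch of C and U letters, the terminal oligopyrimidine or TOP motif, through which the mTOR pathway controls their translation. Mammalian genomes also carry many processed pseudogene copies of ribosomal protein genes, and the sequences of these copies resemble those of the genes.

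Letters around the start of transcription were compared with those at all mouse starts. RefSeq (assembly GRCm38.p6) gave 50 starts for 42 of the 48 genes, with 250 bases before and 50 bases after each start. A run of at least 8 C or T letters without a break lay within 20 bases of the start at 20 of the 50 starts (40%), compared with 16.05% of all 32851 mouse starts and 17.33% of those of mitochondrial ribosomal protein genes. The letters CCGGAAG, the core that ETS family factors bind, occurred on either strand in the whole window at 42% of the starts and at 8.858% of all starts. The letters AAGATGG, a core of YY1 sites, occurred at 14% and at 6.338%, and TATAAA at 12% and at 13.62%. A match is a description of the letters only. The starts of 5 genes are printed here. Rps6 and Rpl27a differed between the 12 strains in the tests below. Rps9 did so only on a probe set that does not represent it, and Rpl22l1 differed in BXH4 against the other RI strains. Rps18 had little difference between strains. Each printed stretch runs from 60 bases before to 20 bases from the start on, and capitals mark its longest run of C and T letters near the start. They lie at chr4:86857348-86857427 on the minus strand for Rps6, chr7:3703981-3704060 on the plus strand for Rps9, chr7:109519135-109519214 on the plus strand for Rpl27a, chr3:28805448-28805527 on the plus strand for Rpl22l1 and chr17:33955646-33955725 on the minus strand for Rps18.
Rps6: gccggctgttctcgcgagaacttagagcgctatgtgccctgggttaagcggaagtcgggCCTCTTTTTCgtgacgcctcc
Rps9: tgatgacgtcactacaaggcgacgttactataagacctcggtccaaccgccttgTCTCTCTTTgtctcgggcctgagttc
Rpl27a: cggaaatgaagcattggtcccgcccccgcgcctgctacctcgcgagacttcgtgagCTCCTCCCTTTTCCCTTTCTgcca
Rpl22l1: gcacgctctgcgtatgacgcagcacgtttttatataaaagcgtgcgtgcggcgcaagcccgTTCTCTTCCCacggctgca
Rps18: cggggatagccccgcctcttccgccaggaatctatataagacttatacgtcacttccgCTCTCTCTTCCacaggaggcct
The run was 10 letters long in Rps6, 9 in Rps9, 20 in Rpl27a, 10 in Rpl22l1 and 11 in Rps18. The table of starts held no entry for Rps4l, which RefSeq lists as a transcribed pseudogene, while the other 47 genes are listed as protein coding.

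Most ribosomal protein genes had a narrow range between strains. Signals are the deposited linear intensities, and differences are on the scale of log2(signal + 16), which understates the change of dim genes. The range of the 12 strain means had a median of 0.35 on the log2 scale over the 45 tested genes, beside 0.54 over all tested genes, and 37 of the 45 lay below that second value. With limma and Benjamini-Hochberg adjustment over all tested genes, 3 of the 45 differed between the 12 strains, namely Rps6, Rps4l and Rpl27a, beside 10.5% of all tested genes, and 5 (11.1%) had an unadjusted p below 0.05, beside 25.6% of all tested genes. Between the 9 RI strains 2 of the 45 differed, Rps6 and Rps4l, beside 9.32% of all tested genes, and 4 had an unadjusted p below 0.05, beside 24.9% of all tested genes. Within strains the residual SD had a median of 0.17 over the ribosomal protein genes and of 0.18 over all tested genes. At like brightness it was not lower for the ribosomal protein genes. The medians were 0.159 beside 0.155 for genes with a mean signal of at least 1000, and 0.291 beside 0.198 below 1000.

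The genes with a mean signal of at least 1000 and those below it are described apart. Of the 37 genes at or above 1000, 0 differed between the 12 strains by limma, 1 had an unadjusted p below 0.05, and their median range was 0.33, beside 0.47 for all 2299 tested genes of such signal, of which 13.2% differed. The 8 genes below 1000 were Rps6, Rps4l, Rpl27a, Rpl7l1, Rps25, Rps27, Rpl12 and Rpl39, with a median range of 0.73, beside 0.57 for all 5981 tested genes of such signal, of which 9.4% differed. All 3 genes that differed were among these 8. The narrowest range belonged to Rpl7, a large subunit protein, at 0.15, with signals between 6180.5 and 7729.7. Among the bright genes the widest range belonged to Rpl22l1 (1.02, adjusted p 0.115), a paralog of the large subunit gene Rpl22, followed by Rps19 (0.60, adjusted p 0.36), a small subunit protein.

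**Figure D1:**
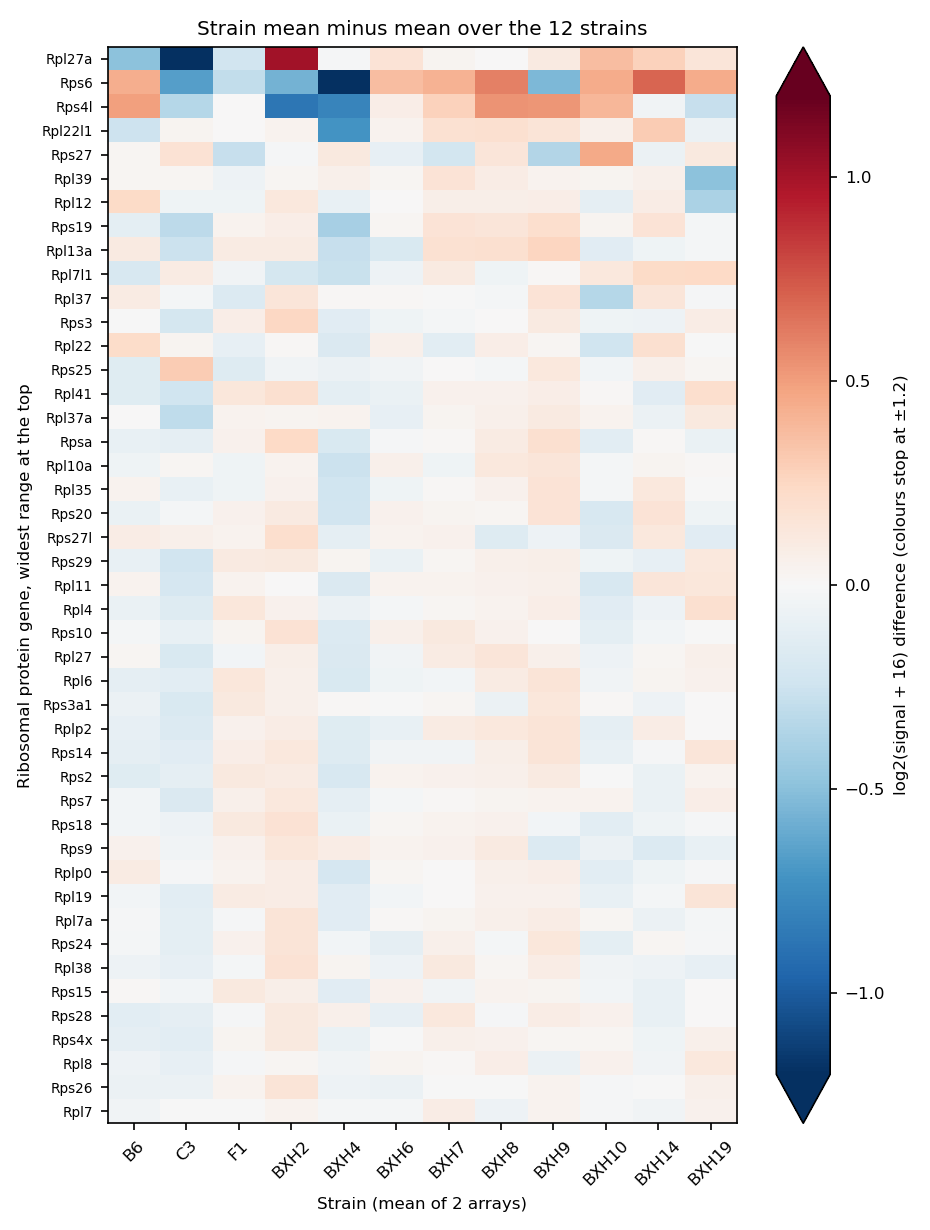
Strain means of the 45 tested ribosomal protein genes (rows, widest range at the top) in the 12 kinds of mice (columns), each minus the gene's mean over the 12, in log2(signal + 16). The rows of Rpl27a, Rps6, Rps4l and Rpl22l1, with ranges of 1.02 to 2.39, stand out from rows that are pale in nearly all strains.

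**Figure D2:**
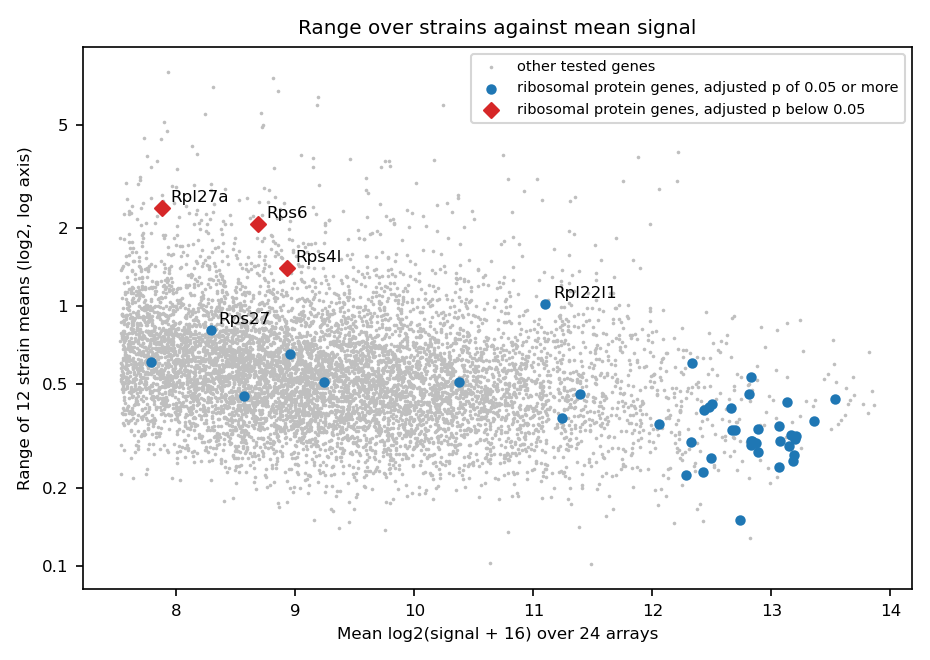
Range of the 12 strain means (log2, on a log axis) against the mean log2(signal + 16) over 24 arrays for all 8280 tested genes, with the 45 ribosomal protein genes in colour. The 3 genes with an adjusted p below 0.05 (diamonds) lie at the dim end, and most others lie at the bright end and low in the cloud.

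Rps6 encodes a small subunit protein that S6 kinases phosphorylate. Its signal, from probe set 1416142_at, was 436.2 and 674.5 on the B6 arrays, 249.7 and 239.6 on the C3 arrays, and 351.7 and 292.6 on the F1 arrays. It was low in BXH2 (249.5 and 277.2), BXH4 (189.9 and 108.3) and BXH9 (249.3 and 288.1). It was higher in BXH6 (521.4 and 509.6), BXH7 (435.9 and 659.6), BXH8 (724.6 and 517.8), BXH10 (516.8 and 576.8), BXH14 (610 and 701.2) and BXH19 (648.8 and 457.1). The arrays of C3, F1, BXH2, BXH4 and BXH9 did not overlap those of the other strains. The strain means spanned 2.07 log2 units (limma F over 12 strains, adjusted p 1.36e-04), and over the RI strains the adjusted p was 1.26e-04.

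Rps6 was also the only 1 of the 45 tested genes that differed between the progenitors. It was lower in C3 than in B6 by a log2 difference of -1.10 (SE 0.25, limma adjusted p 0.0281), beside 0.918% of all tested genes lower in C3, and 3 of the 45 genes were lower with an unadjusted p below 0.05, beside 4.90% of all tested genes. None of the 45 was higher in C3 by the adjusted p, beside 0.749% of all tested genes, and 2 were at an unadjusted p below 0.05, beside 4.43%. The difference of Rps6 was -0.80 (adjusted p 0.359) without the second B6 array, -1.13 (0.12) without the first C3 array and -1.07 (0.166) without the second C3 array. With each array centred on its median it was -1.07 with an adjusted p of 0.0527. In these fits a lone array of a strain is taken to vary like the other groups.

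The other probe sets for Rps6 did not share 1 pattern. A probe set annotated to both Rps6 and the pseudogene Rps6-ps4, 1437246_x_at, gave 1326.4 and 1024.4 on the B6 arrays, only 544.4 and 532.6 on the C3 arrays, and 873.3 and 1114.1 in the hybrid. In the RI strains it lay between 550 and 779.6 in BXH2, BXH4 and BXH9 and between 1035.9 and 1418.9 in the other 6. These are the same RI strains that were low for 1416142_at, and the strain means of both probe sets had a Pearson r of 0.95 over 12 strains and 0.99 over the 9 RI strains, given as a description of values from the same arrays. Its C3 minus B6 difference was -1.09 (SE 0.17, limma adjusted p 0.00156 over 22626 probe sets). In contrast, 1416141_a_at, annotated to the same symbols, had signals from 9542.4 to 16179.6 with a range of strain means of 0.37 (adjusted p 0.892) and r of -0.06 with 1416142_at over the 12 strains. A further 4 probe sets of both symbols, 1434377_x_at, 1455693_x_at, 1454620_x_at and 1435817_x_at, had ranges of 0.34 to 0.49 and adjusted p of 0.495 to 0.879. The other 3 probe sets of both symbols had ranges of at least 0.71 and adjusted p of 0.524 to 0.764, and the other probe set of Rps6 alone, 1453466_at, had signals of 23.2 to 80.7 and a range of 0.75 (adjusted p 0.477). Which transcripts each probe set reports, and whether the strains differ in the sequence under its oligonucleotides, was not tested.

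Rps9, a small subunit protein, gave the widest strain difference of any probe set of these genes, on a probe set that does not represent the gene here. That probe set was singled out after its values were seen. The representing probe set, 1433689_s_at, lay between 4327.2 and 6730.3, with a range of strain means of 0.30 and an adjusted p of 0.7 over the 12 strains. The other, 1434624_x_at, gave 2456.3 and 2170.6 on the B6 arrays, 204.3 and 238 on the C3 arrays, and 1273 and 1816.4 in the hybrid. It was low in BXH4 (236.8 and 138), BXH6 (180 and 219.7) and BXH7 (341 and 225.6), and lay between 2005.8 and 3324.5 on all 12 arrays of BXH2, BXH8, BXH9, BXH10, BXH14 and BXH19. Every RI strain was thus near B6 or near C3, with no array between 341 and 1273, and F1 lay 0.18 of the way from B6 to C3 on the log2 scale.

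The C3 minus B6 difference of 1434624_x_at was -3.30 (SE 0.22, limma adjusted p 7.15e-08), and the F test over 12 strains gave an adjusted p of 2.65e-10. In that fit over all 22626 probe sets, 5.48% differed between the 12 strains. Of the 100 probe sets annotated to a single ribosomal protein gene of the 48, 4 differed, those being 1 each of Rps9, Rps6, Rps4l and Rpl3l. Of the 102 probe sets annotated to several symbols that include a ribosomal protein gene, 2 differed, 1437246_x_at and 1460442_at. The third Rps9 probe set, 1426958_at, had signals of 84.1 to 185.5 and a range of 0.66 (adjusted p 0.651).

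**Figure D3:**
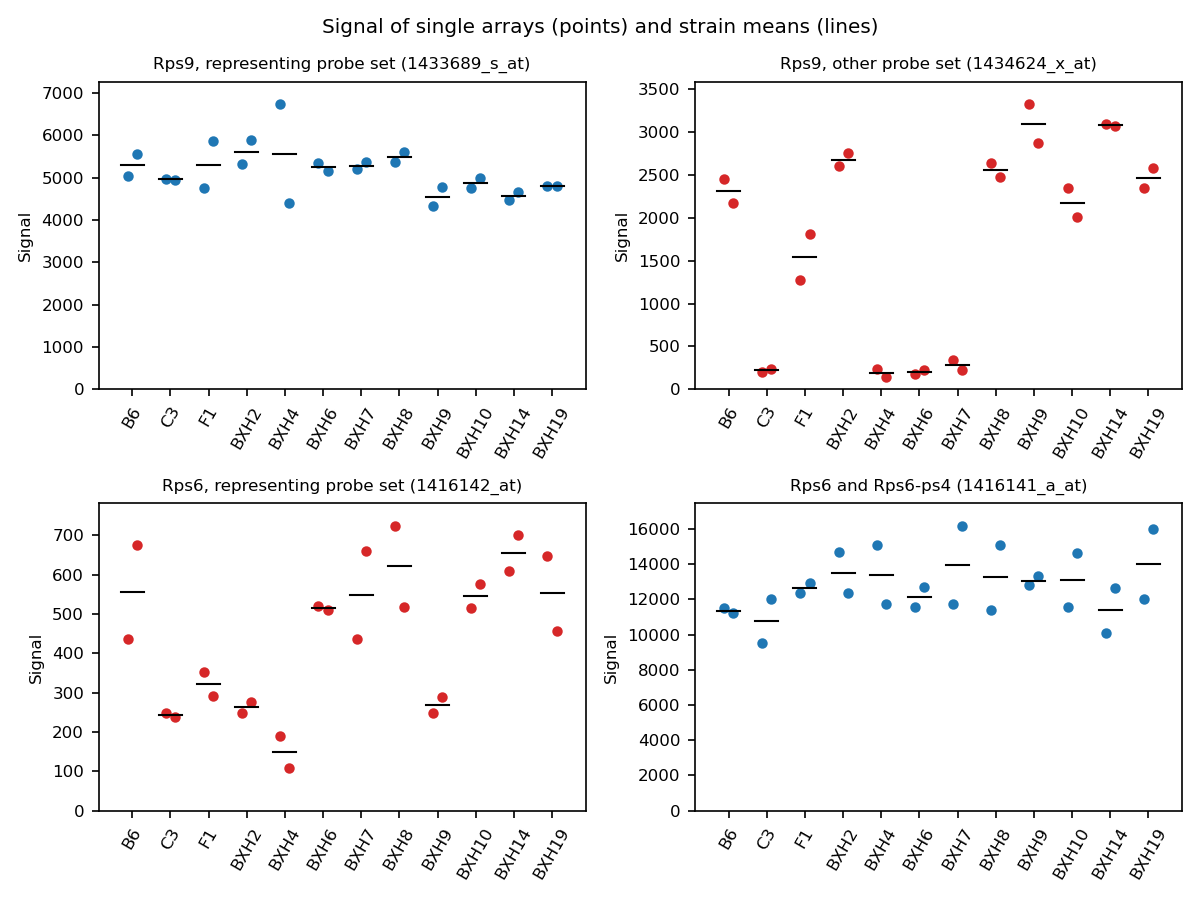
Signal on each array (points) and its strain mean (lines) for 2 probe sets of Rps9 (top) and, for Rps6, the probe set of that symbol alone and one shared with Rps6-ps4 (bottom). The right Rps9 panel falls into a low group (C3, BXH4, BXH6 and BXH7, 138 to 341) and a high group with F1 between, the left Rps6 panel is low in C3, F1, BXH2, BXH4 and BXH9, and the other 2 panels show no such groups.

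The probe set 1460442_at, annotated to both Rps19 and Rps19-ps3, ran the other way between the progenitors. All its signals, 14.7 to 166, lay below the limit of 169 for tested genes, and those of B6 were near the offset of 16. It gave 17.4 and 14.7 on the B6 arrays but 120.2 and 166 on those of C3, with 90.6 and 68 in the hybrid, and a C3 minus B6 difference of 2.30 (SE 0.34, limma adjusted p 0.00114). All 18 RI arrays, at 35.3 to 159.6, lay above both B6 arrays. The probe set of Rps19 alone, 1449243_a_at, lay between 3515.6 and 6850.2 and differed between the progenitors by -0.20 (adjusted p 0.919).

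Rps4l resembles the X-linked small subunit gene Rps4x. Its signal was 750.7 and 603.5 for B6, 477 and 283.5 for C3, and 410.1 and 546.5 for the hybrid. It was low in BXH2 (322.2 and 197.4) and BXH4 (283.2 and 251.4), and highest in BXH8 (638.5 and 757.4) and BXH9 (804.6 and 586.9). BXH6 gave 404.3 and 615.6, BXH7 506 and 656.1, BXH10 622.4 and 632, BXH14 464.7 and 452.4, and BXH19 330.3 and 452.1. Every array of BXH2 and BXH4, the 2 strains of lowest mean, lay below every array of the other RI strains. The gap was small, with 322.2 in BXH2 next to 330.3 in BXH19. The range was 1.41 (limma F over 12 strains, adjusted p 0.00548), and the F over the RI strains gave 0.00444.

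Against the mean of the other 8 RI strains, Rps4l was lower in BXH2 by a log2 difference of -0.95 (SE 0.20, limma adjusted p 0.0205) and in BXH4 by -0.87 (SE 0.20, adjusted p 0.0148). Without the second BXH2 array the first of these was -0.62 with an adjusted p of 0.358. The second was -0.95 with an adjusted p of 0.0784 without the first BXH4 array and -0.79 with 0.17 without the second. Between the progenitors the difference was -0.84 (SE 0.27, adjusted p 0.162), which misses the threshold. By strain means both RI strains lay beyond C3, at 1.61 (BXH2) and 1.52 (BXH4) of the distance from B6 to C3. The second C3 array (283.5) was, however, below the first BXH2 array (322.2) and close to the first BXH4 array (283.2). Neither strain was tested against C3. Rps4x itself lay between 7053.3 and 10270.2 with a range of 0.24 (adjusted p 0.966).

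Rpl27a, a large subunit protein, had the widest range of the 45 genes, 2.39 (limma F over 12 strains, adjusted p 0.0313). Its signal, from probe set 1437729_at, was 68.2 and 81.1 for C3, 128.6 and 177.6 for B6, and 187.5 and 181.1 for the hybrid. The highest strain was BXH2 (554.4 and 377.2). The other RI arrays lay between 139.8 and 372.6, with BXH4 at 283.2 and 166.5, BXH6 at 254.3 and 241.1, BXH7 at 139.8 and 358.6, and BXH8 at 279.6 and 172.6. BXH9 gave 183.6 and 307.6, BXH10 335.8 and 248.7, BXH14 372.6 and 194.5, and BXH19 227.8 and 262.1. The C3 arrays were below all others, and every RI strain mean was above the B6 mean. Between the RI strains the adjusted p was 0.497.

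The call for Rpl27a rested on few arrays and on the signal limit. Without the first BXH2 array its adjusted p over the 12 strains was 0.0779, without the first B6 array 0.0511, without the first C3 array 0.127 and without the second C3 array 0.0949. With no signal limit it was 0.0612 and in the fit over all probe sets 0.0702, and with a limit at the top 40% or with the mean of probe sets Rpl27a was not among the tested genes. Its residual SD within strains, 0.43, was the highest of the 45 genes. The signal of the array's 18S ribosomal RNA control, which varied widely between arrays, lay between 161.6 and 1248.7 on the 6 arrays from the progenitors and the hybrid and between 256.8 and 10809.9 on the RI arrays. Rpl27a and this control had r of 0.42 over 24 arrays (Spearman rho 0.28, r of 0.25 without the 2 arrays farthest out, and r of -0.22 within strains), and the part of the control in the result was not tested. Another probe set, 1426661_at, annotated to Rpl27a and 4 other symbols, lay between 5212.5 and 7615.2 with a range of 0.35 (adjusted p 0.762).

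Rpl22l1 was low in a single strain. Its signal was 1430.3 and 1215.2 in BXH4 and between 1823.7 and 2911.3 on the other 16 RI arrays, with no overlap. The B6 arrays gave 1503.4 and 2225, those of C3 2041.5 and 2411.5, and the hybrid 1722.6 and 2756.5. The BXH4 difference from the other RI strains was -0.83 (SE 0.16, limma adjusted p 0.00573), and it was -0.71 with an adjusted p of 0.131 without the second BXH4 array. Rpl22 lay between 1824.3 and 3401.3 with a range of 0.46 (adjusted p 0.821).

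**Figure D4:**
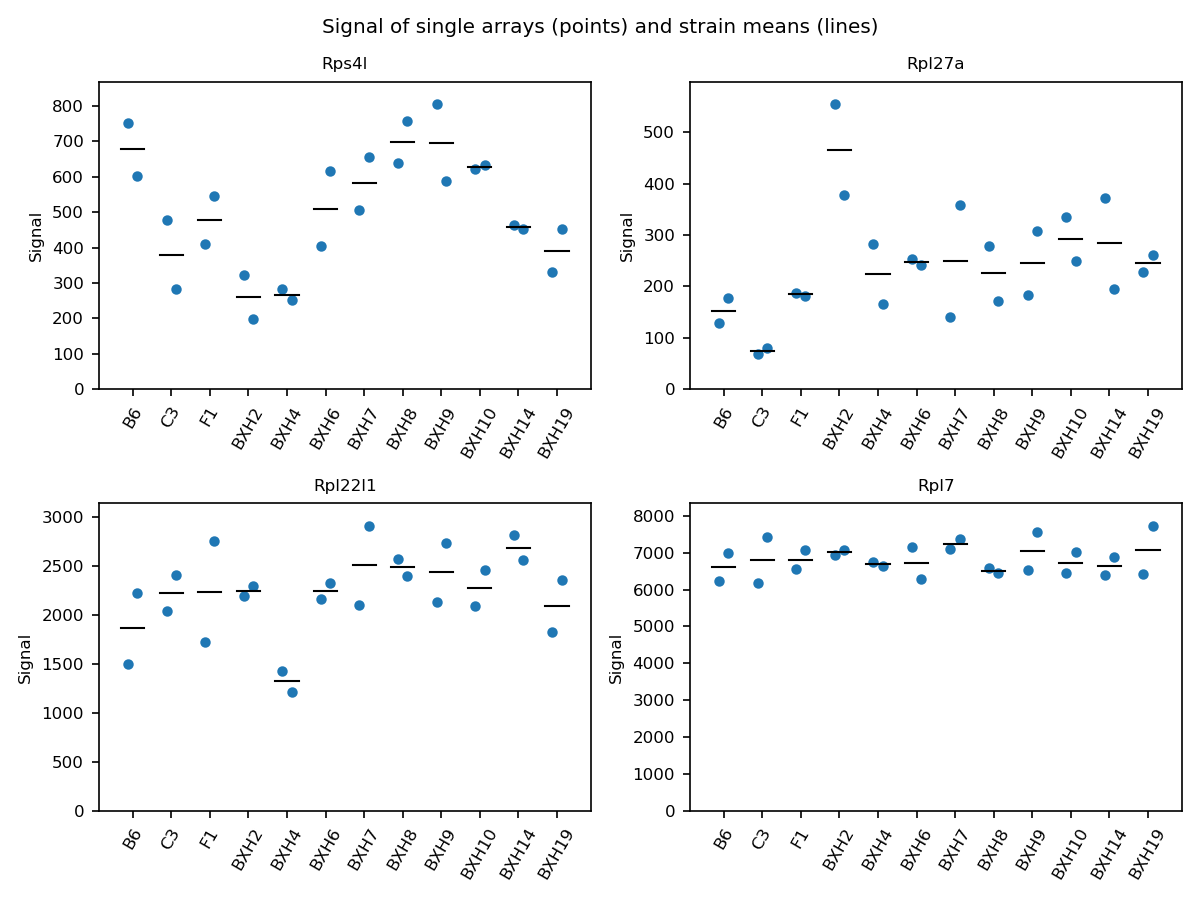
Signal on each array (points) and its strain mean (lines) of Rps4l, Rpl27a, Rpl22l1 and Rpl7. Rps4l is low in BXH2 and BXH4, Rpl27a is lowest in C3 and highest in BXH2, Rpl22l1 is low in BXH4 (1430.3 and 1215.2), and Rpl7, with the narrowest range of the 45 genes, lies between 6180.5 and 7729.7 throughout.

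Of the other paralogs named as like another gene, Rpl7l1 had signals of 434.3 to 722.2 and a range of 0.51 (limma adjusted p 0.0963). It was lowest in BXH4 (543.5 and 434.3) and highest in BXH19 (709.4 and 689.7), and its BXH4 difference of -0.32 had an adjusted p of 0.0583. Rps27l, a paralog of Rps27 that p53 induces, lay between 1848.4 and 2892.1 with a range of 0.37 (adjusted p 0.663). Rpl39l, a testis-expressed paralog of Rpl39, lay between 1.9 and 47.2 and was not tested.

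Rpl3l, a paralog of Rpl3 found in skeletal and heart muscle, was also below the signal limit of the tested genes. Its signal was 186.5 and 400.3 in BXH9, 135.5 and 142.8 in BXH8, 127.7 and 144.5 in BXH2, and from 12.8 to 128.1 on the other 18 arrays. BXH9 thus lay above all other strains. In the fit over all probe sets it differed between the 12 strains with a limma adjusted p of 0.00748. The mean of 13 skeletal muscle markers moved with it, with r of 0.80 and rho of 0.84 over 24 arrays (0.81 without the 2 arrays farthest out, 0.61 within strains). The summed signal of these markers was 29495.3 and 49588.5 in BXH9, 38082.6 and 31233.2 in BXH8, 28218.3 and 32619.9 in BXH2, and from 1743.6 to 24330.6 on the other 18 arrays. Of the 11 markers tested 6 differed between the 12 strains, beside 10.5% of all tested genes, and 0 of the 13 were at a signal of 0 on any array. Their part in the Rpl3l result was not tested. In bulk lung, more cells of a type and more RNA per cell cannot be told apart.

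The remaining dim genes had ranges that did not pass the test. Rps27 had signals of 206.1 to 546.5 and a range of 0.81 (limma adjusted p 0.558), with 546.5 on 1 BXH10 array and 312.1 on the other. Rpl39 lay between 424.2 and 564.5 on all arrays but 1 of BXH19, at 210.9, and its range was 0.66 (adjusted p 0.825). Rpl12 lay between 130.3 and 260 with a range of 0.61 (adjusted p 0.722). Rps25 was 334.2 and 322.2 on the B6 arrays but 407.2 and 504.4 on those of C3, a difference of 0.45 (SE 0.14, adjusted p 0.154). Rps25, Rps24 and Rpl7l1 had the lowest residual SD within strains, and Rpl27a, Rps27 and Rpl39 the highest. Rpl14 lay between 64.7 and 109.4 and was not tested. Low signals of these genes belong to the probe sets of their symbol alone. A probe set shared by Rpl14 and Rpl14-ps1, 1438626_x_at, lay between 4459.1 and 6742.9. The one shared by Rpl39 and Gm32211, 1450840_a_at, lay between 6390 and 9235.8.

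The proteins of the ribosomal stalk, which recruits elongation factors, and Rpsa, which is also known as a laminin receptor, had narrow ranges over the strains. Rplp0 lay between 5146.8 and 8750.1 with a range of 0.30 (limma adjusted p 0.898). Rplp2 had signals of 7207.8 to 11799.8 and a range of 0.32 (adjusted p 0.805). Rpsa lay between 4363.5 and 7607.8 with a range of 0.42 (adjusted p 0.647). Rplp1 has no probe set of its own symbol alone: it is 1 of 30 ribosomal protein genes, Rpl3, Rpl5, Rpl10, Rpl13, Rps12 and Rps23 among them, that are named only by probe sets of several symbols and are not counted among the 48.

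In the hybrid none of the 45 genes passed the test against the midparent, the mean of B6 and C3 on the log2 scale. With limma 0 of the 45 differed, beside 0.0242% of all tested genes. At an unadjusted p below 0.05 were 2 of the 45, beside 8.16% of all tested genes, Rpl27a (0.70 above, SE 0.33, adjusted p 0.608) and Rpl4 (0.26 above, SE 0.12, adjusted p 0.604). The median difference of the 45 genes was 0.11, with 33 above and 12 below 0. That of all tested genes was -0.02, with 54.96% of them below 0. The mean deviation of the 45 genes on each array, described below, was -0.06 and 0.08 in F1. It was -0.03 and -0.01 in B6 and -0.22 and -0.05 in C3, so the midparent was low mainly through the first C3 array.

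Each RI strain was also compared with the mean of the other 8, so these comparisons share arrays. BXH4 had 3 of the 45 genes lower, Rps6, Rpl22l1 and Rps4l, beside 4.12% of all tested genes lower in that strain, and 0 higher, beside 3.51%. With an unadjusted p below 0.05, 11 were lower and 0 higher, beside 12.1% of all tested genes lower and 11.1% higher. Rps6 had the largest BXH4 difference, -1.60 (SE 0.19, limma adjusted p 6.71e-05). BXH2 had 1 lower, Rps4l, beside 0.592% of all tested genes, and 0 higher, beside 0.58%, with 3 lower and 1 higher at an unadjusted p below 0.05, beside 6.12% and 5.22% of all tested genes.

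The other 7 RI strains had 0 genes past the adjusted threshold of limma. The background was 1.94% of all tested genes in BXH6, 1.29% in BXH7, 1.39% in BXH8, 2.08% in BXH9, 1.47% in BXH10, 1.23% in BXH14 and 1.22% in BXH19. The number of ribosomal protein genes with an unadjusted p below 0.05 was 0 in BXH6, 1 in BXH7, 2 in BXH8, 3 in BXH9, 5 in BXH10, 2 in BXH14 and 4 in BXH19. Of all tested genes 10.5% to 15.7% were at that level in these strains, and the highest share of the 45 genes, in BXH10, was 11.1%, beside 12.02% of all tested genes there. Rps6 came nearest in BXH9 (-0.67, adjusted p 0.0746) and in BXH14 (0.72, adjusted p 0.0762).

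Many ribosomal protein genes moved together from array to array. For each array, the deviation of every tested gene from its mean over the 24 arrays was averaged over the 45 genes. This mean was lowest on the second BXH4 array, at -0.34, where 41 of the 45 genes were below their own mean, and on the first C3 array, at -0.22, again with 41 below. The partner arrays stood at 0.01 (BXH4) and -0.05 (C3). The highest value was 0.17 on the second BXH7 array, whose partner stood at -0.07. Strain means ran from -0.16 in BXH4 (SD 0.25, n = 2) and -0.13 in C3 (SD 0.12, n = 2) to 0.08 in BXH2 (SD 0.05, n = 2), and the arrays of BXH4 differed by 0.35.

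The shift of the whole set in BXH4 and C3 therefore changed with 1 array. In BXH4, 37 of the 45 genes were below the other RI strains, with a median of -0.16 beside 0.01 for all tested genes. That median was -0.38 without the first BXH4 array and 0.05 without the second. The C3 minus B6 differences had a median of -0.07, with 35 of 45 below 0, beside 0.0048 for all tested genes. This became 0.01 without the first C3 array and -0.16 without the second.

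The mean of the 45 genes followed the bright end of each array. Over 24 arrays it had r of 0.76 and rho of 0.77 with the 99th percentile of all signals, r of 0.72 without the 2 arrays farthest out, and r of 0.90 after strain means were removed. The ribosomal protein genes are themselves among the brightest signals, with 36 of the 45 in the brightest 10% of tested genes, so the measures share values. The log2 ratio of 3' to 5' control signals, a sign of RNA quality, had r of 0.10 for Gapdh and 0.06 for actin with the mean of the 45 genes, and the 18S control 0.34. The mean of 9 lung epithelium markers had r of 0.65, and 0.89 within strains. By limma 0 of the 9 differed between the 12 strains, beside 10.5% of all tested genes. At an unadjusted p below 0.05 were 2 of the 9, beside 25.6% of all tested genes. The means of the adipose, skeletal muscle, squamous epithelium, erythroid and B and T cell markers had r of 0.47, 0.30, 0.23, 0.02 and -0.14. The part of any of these in the shift of the ribosomal protein genes was not tested.

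**Figure D5:**
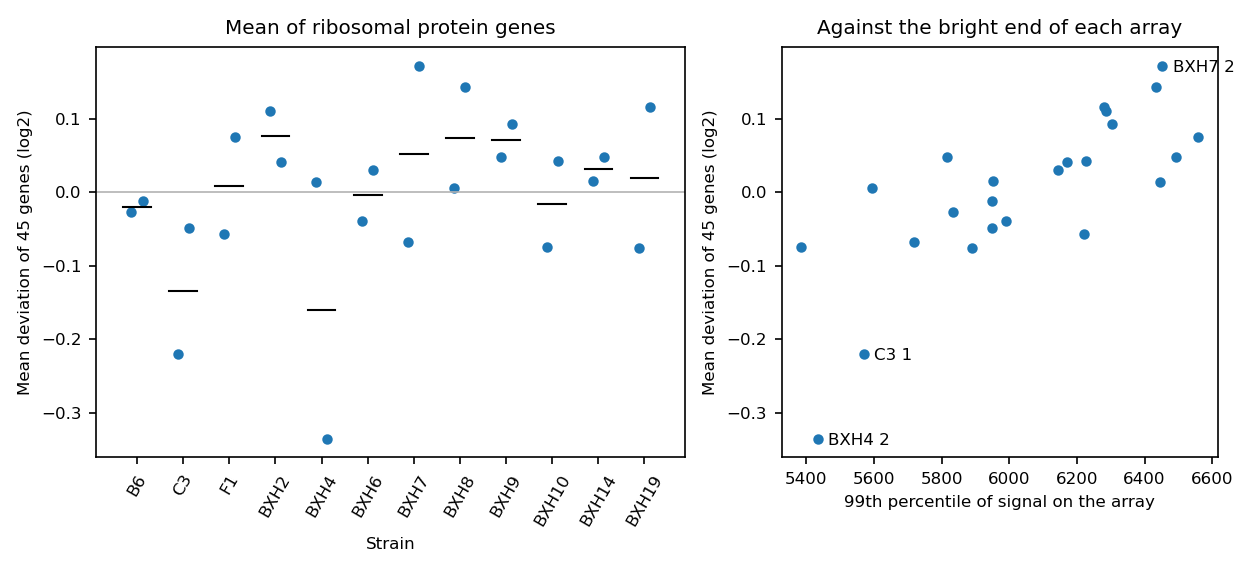
Mean deviation of the 45 tested ribosomal protein genes from their own means (log2), by strain with both arrays as points and the strain mean as a line (left), and against the 99th percentile of signal on each array (right). The second BXH4 array (-0.34) and the first C3 array (-0.22) lie below all others, and arrays with a higher 99th percentile have a higher mean.

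Pairs of ribosomal protein genes had a median Pearson r of 0.41 over the 24 arrays, beside 0.01 for all tested genes. For the 37 brighter genes the median was 0.54, and for the 8 dim genes 0.02. The mean of the bright genes and that of the dim genes had r of 0.36, which was -0.15 without the 2 arrays farthest out. Against the mean of the other members, Rpl12 (-0.32), Rps25 (-0.20) and Rps27 (-0.07) had the lowest r, and each is represented by a dim probe set. All 3 also have probe sets shared with other symbols. Those shared with Rpl12 had signals of 1742.8 to 5321.3 (1416026_a_at) and of 4904.1 to 8157.5 (1435725_x_at), the one shared with Rps25 of 2571.7 to 4130.5 (1451068_s_at) and the one shared with Rps27 of 6051.1 to 9618.3 (1415716_a_at).

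The genes outside the set most like its mean over the 24 arrays were Psmb6 (r 0.76), a proteasome subunit, Tmsb10 (0.76), an actin-binding peptide, Cops9 (0.75), Col3a1 (0.75), a fibrillar collagen, Phip (0.73) and Akr1a1 (0.73). The least like were Kif2a (-0.75), Arid1a (-0.74), Fam120a (-0.74) and Lman2 (-0.72). These are descriptions over arrays that share their scaling, and none of the 10 differed between the 12 strains, with limma adjusted p of 0.222 to 0.973.

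Other genes of the translation machinery were read from lists. Of all tested genes, 10.5% differed between the 12 strains by limma and 25.6% had an unadjusted p below 0.05. In BXH4, 4.12% of all tested genes were lower and 3.51% higher by limma, with 12.1% lower and 11.1% higher at an unadjusted p below 0.05. Of 21 tested translation factors and other genes with TOP messenger RNAs, 2 differed between the 12 strains by limma, Gas5, a host gene of small nucleolar RNAs (range 0.79, adjusted p 0.00408), and Eif3k, an initiation factor subunit (range 0.79, adjusted p 0.025). An unadjusted p below 0.05 over the 12 strains was found for 5 of the 21. Eif3k was also lower in BXH4 (-0.61, SE 0.11, limma adjusted p 0.0021), and 0 of the 21 were higher there by limma. At an unadjusted p below 0.05 in BXH4 were 7 of the 21, with 2 of these higher and the rest lower. The mean of this list had r of 0.83 with the mean of the ribosomal protein genes over 24 arrays. Its median BXH4 difference was -0.08.

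Of 24 tested genes of ribosome biogenesis, which process ribosomal RNA and assemble the subunits, 0 differed between the 12 strains by limma and 4 had an unadjusted p below 0.05. Nop56, a core protein of small nucleolar particles, was the nearest (adjusted p 0.101). The mean of that list had r of 0.11 with the ribosomal protein genes. Of 12 tested genes of the mTOR pathway and translational control, 1 differed by limma, Sesn1, a sestrin that restrains mTOR (range 0.79, adjusted p 0.0247). At an unadjusted p below 0.05 were 6 of the 12, beside 25.6% of all tested genes. Eif4ebp2, a translation repressor, was higher in BXH4 (0.36, SE 0.11, limma adjusted p 0.0476). Of 74 tested mitochondrial ribosomal protein genes, 4 differed between the 12 strains, Mrpl15, Mrpl48, Mrps28 and Mrpl34, beside 10.5% of all tested genes. A further count, at an unadjusted p below 0.05, was 19 of the 74, beside 25.6%. In BXH4, 8 of the 74 were lower and 0 higher by limma, beside 4.12% and 3.51% of all tested genes. At an unadjusted p below 0.05 there, 22 of the 74 were lower and 0 higher, beside 12.1% and 11.1% of all tested genes. Over the 74 genes the median BXH4 difference was -0.23 and the median range 0.52.

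On the chromosome, the genes around Rps6, Rps4l and Rpl27a were read up to 50 annotated genes to either side. Of all tested genes, 10.5% differed between the 12 strains by limma and 25.6% had an unadjusted p below 0.05. Of 14 tested neighbours of Rps6, 3 had an unadjusted p below 0.05 and 1 differed between the 12 strains, Plin2 (limma adjusted p 0.043). The strain means of Plin2 had r of -0.08 with Rps6. Dennd4c, 2 genes away, and Klhl9, 26 genes away, both picked by their r, had r of 0.78 and 0.60 with Rps6 over the 12 strain means (0.87 and 0.70 over the 9 RI means) and adjusted p of 0.322 and 0.117. Over the 14 neighbours this r ran from -0.42 (Ttc39b) to 0.78, with Acer2, 1 gene away, at -0.31. Of 16 tested neighbours of Rps4l, 4 differed by limma and 6 had an unadjusted p below 0.05. The 4 had r of -0.07 to 0.13 with Rps4l over the 12 strain means. Ccdc91 and Sinhcaf, picked by their r, did not pass the test (adjusted p 0.969 and 0.997) and had r of -0.67 and -0.62 (-0.87 and -0.58 over the RI means). Over the 16 neighbours r ran from -0.67 to 0.42 (Klhl42). Of 17 tested neighbours of Rpl27a, 0 differed by limma and 2 had an unadjusted p below 0.05. Near Rps9, Ndufa3, Tfpt and Tsen34 had r of 0.94, 0.79 and 0.78 with probe set 1434624_x_at over the 9 RI means, and Mboat7 had -0.89. None of these 4, picked by their r, differed between the 12 strains, with adjusted p of 0.0965 to 0.703. Cdc42ep5, 20 genes away, was the only tested neighbour of Rps9 that did (limma adjusted p 0.0169), with r of -0.10. Values of r this far from 0 also occurred elsewhere, as Pbx2 and Smarca4, on other chromosomes, had r of -0.96 and -0.95 with the same probe set. Both were likewise picked by their r. The share of all tested genes with such an r was not counted, so the neighbourhood cannot be set against it.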

How the data were processed

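Lung RNA was amplified from a T7-oligo(dT) primer to biotin-labelled cRNA and hybridised, per the labels' protocols. Each array has a deposited linear intensity, called signal here, for 22690 probe sets. How it was computed and scaled is not given in sources used here. Trimming 2% of values at each end gave mean signals of 499.5 to 499.9 on all arrays, so no further scaling was applied. The array medians lay between 239 and 269.6.

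Signals were analysed as log2(signal + 16). A gene was tested if its brightest probe set was in the top 60% of probe sets by mean, a signal of at least 169. One limma 3.58.1 model (R 4.3.3; lmFit, eBayes with a mean-variance trend, 12 residual degrees of freedom) covered all 24 arrays and 12 strains, with Benjamini-Hochberg adjustment within each comparison and a threshold of 0.05. The fit was checked on simulated data. A second fit took every probe set. Probe sets were named from the platform annotation: 20380 had 1 symbol, 691 several, 1555 none, and 64 were controls. The number of arrays limits the precision.

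The same replicate number marks no known link between strains: 22 of 66 pairs of strains had deviations correlated above 0.1, so the arrays were not paired. The arrays of a strain had r of 0.949 to 0.975 across genes.

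The members, the lists and the tests were chosen with earlier results of these data known. Named genes are those that passed a test, the 8 widest ranges, paralogs named as like another gene, the stalk proteins and Rpsa, the 3 lowest and 3 highest residual SDs, the 6 genes most and 4 least like the mean, and up to 4 genes of smallest p per list described. Alternatives were offsets of 1 and 64, median centring, quantile normalization, the top 40% or no filter, the mean of probe sets, no _x_at or _s_at probe sets, no variance trend, a replicate block, and leaving out BXH4 or single arrays.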

Additional observations from a re-analysis of the deposited data

How the results depend on the processing

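The number of ribosomal protein genes that differed was 3 between the 12 strains (2 to 4 under the other settings, 2 to 3 leaving out 1 array) and 2 between the 9 RI strains (2 to 3 in both). The calls of single RI strains rose from 4 to 10 with quantile normalization and to 12 with the mean of probe sets, and were 4 to 8 leaving out 1 array, with 8 without the first BXH4 array. The single gene lower in C3, Rps6, was 0 genes with median centring, and 0 to 1 leaving out 1 array, with 0 without the second B6 array or either C3 array. No gene was higher in C3 or differed in F1 under any setting run. With the mean of probe sets, Rps9 and Rps4l differed between the 12 strains, Rps9 was the single gene lower in C3, and Rps6 fell below the signal limit, and without a filter Rpl3l, Rps4l and Rps6 did. Rpl27a had an adjusted p of 0.0612 without the filter. The cause of these changes was not tested. With the replicate number as a block, 4 genes differed between the 12 strains (Rpl22l1 added, adjusted p 0.044), 3 between the RI strains and 5 calls were made for single RI strains, and Rps6 remained the single gene lower in C3. No called difference of a single gene changed sign under any setting. The median over all 45 genes did: the BXH4 median of -0.16 was 0.05 without the second BXH4 array, and the C3 minus B6 median of -0.07 was 0.01 without the first C3 array. The results rest on 2 arrays a strain, and genes of low signal are the least precise.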
